A study of Mus musculus with 8 samples.

Results

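Neutrophils rich in the summed transcripts of 6 genes, the cytokine genes *Il1a* and *Csf1* among them, were followed in mouse kidneys after ischemia-reperfusion injury (IRI), with and without entospletinib, an inhibitor of the kinase SYK. They numbered 1303 of 90855 cells within the limits on cell quality, out of 120281 barcodes in the whole data set. A cell was taken when its transcripts of *Il1a*, *Csf1*, *Il1rn*, *Il36g*, *Il23a* and *Ccrl2* summed to at least 4 and outnumbered those of *S100a8*, *S100a9*, *Retnlg*, *Cxcr2*, *Slfn4* and *Hdc*. It also needed at least 2 transcripts of *Csf3r*, *Mmp9*, *Cxcr2* and *S100a9*, at most 1 of *C1qa*, *C1qb*, *C1qc*, *Vcan* and *Fn1*, and at most 1 of *Flt1*, *Pax5*, *Themis* and *Slc12a1*. These cells are called activated neutrophils below. They are compared with 11213 S100a8-rich neutrophils, which met the same limits except that the second sum reached at least 4 and was at least as large as the first. Both kinds of cell were thus selected on measured counts of these genes, so their levels are given as a description without a test, as is every contrast of both kinds of neutrophil.

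There were 7 conditions, each 1 pool of kidney cells from 3 male C57BL/6 mice whose age was not given in the sources used here. The control mice had untouched kidneys. All other mice had the blood supply of the left kidney clamped and restored, and were given vehicle (dimethyl sulfoxide) or entospletinib by intraperitoneal injection before surgery, with the injections continued after day 1 in the mice examined later. Kidneys were taken at day 1, 7 or 14. Live leukocytes were enriched by sorting on a dead-cell dye and on scatter, so every share below is a share of the sorted suspension. Cells of each pool were spread over 8 sublibraries, so the SD over sublibraries is technical. With 1 pool per condition, no comparison of single conditions can be tested against the spread between mice.

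Neutrophils leave the bone marrow with preformed granule proteins, and the calcium-binding pair encoded by *S100a8* and *S100a9* is among the most abundant products of young cells. In inflamed tissue, signals through Toll-like and interleukin receptors act by way of NF-κB and AP-1 to switch on cytokine genes. *Il1a* encodes interleukin 1α, an alarm cytokine that acts on the same receptor as interleukin 1β, and *Il1rn* encodes the antagonist of that receptor. *Il36g* is another ligand of the interleukin 1 family, *Il23a* encodes the subunit particular to interleukin 23, *Csf1* the growth factor of monocytes and macrophages, and *Ccrl2* a receptor that binds the chemoattractant chemerin without signalling. SYK is a tyrosine kinase that passes on signals from Fc receptors, integrins and C-type lectins that carry or pair with an activation motif called ITAM.

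The windows of 250 bases before the transcription start are shown for 4 of these genes, since their products define the cells. The genes are *Il1a* (chromosome 2, 129299610 to 129309972, minus strand), *Csf1* (chromosome 3, 107741048 to 107760469, minus strand), *Il1rn* (chromosome 2, 24336853 to 24351494, plus strand) and *Ccrl2* (chromosome 9, 111054486 to 111057519, minus strand), in GENCODE M21 on GRCm38. The sequences are those of RefSeq on GRCm38.p6, at chr2:129309973-129310222, chr3:107760470-107760719, chr2:24336610-24336859 and chr9:111057519-111057768, and for *Il1rn* and *Ccrl2* the first of 3 starts is shown, since the windows of the other 2 starts of each held neither motif. Capitals mark a match to the AP-1 motif TGANTCA in *Il1a* and *Il1rn* and to the NF-κB motif in *Csf1* and *Ccrl2*, both strands having been searched.
Il1a: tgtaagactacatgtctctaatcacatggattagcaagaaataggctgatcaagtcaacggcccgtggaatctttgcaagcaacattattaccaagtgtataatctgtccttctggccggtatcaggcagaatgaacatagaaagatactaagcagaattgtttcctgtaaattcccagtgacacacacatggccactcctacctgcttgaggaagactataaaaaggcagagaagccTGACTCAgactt
Csf1: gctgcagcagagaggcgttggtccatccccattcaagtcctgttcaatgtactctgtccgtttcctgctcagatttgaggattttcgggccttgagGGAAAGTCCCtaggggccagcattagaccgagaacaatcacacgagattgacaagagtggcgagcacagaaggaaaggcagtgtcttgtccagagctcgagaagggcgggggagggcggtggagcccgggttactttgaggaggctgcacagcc
Il1rn: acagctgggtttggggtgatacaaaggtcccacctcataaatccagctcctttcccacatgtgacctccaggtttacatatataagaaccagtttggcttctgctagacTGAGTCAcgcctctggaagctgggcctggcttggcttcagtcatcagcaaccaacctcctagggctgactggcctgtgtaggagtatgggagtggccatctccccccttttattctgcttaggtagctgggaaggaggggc
Ccrl2: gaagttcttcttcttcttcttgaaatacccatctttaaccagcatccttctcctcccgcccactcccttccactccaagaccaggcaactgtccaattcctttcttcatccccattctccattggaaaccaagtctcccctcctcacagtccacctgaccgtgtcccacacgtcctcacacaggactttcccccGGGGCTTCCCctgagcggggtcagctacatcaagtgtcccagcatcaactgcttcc
The AP-1 match lay 12 to 6 bases before the start in *Il1a* and ended 135 bases before it in *Il1rn*. The NF-κB match lay 154 to 145 bases before the start of *Csf1*, on the minus strand of the gene, and 56 to 47 bases before that of *Ccrl2*. Of all 32851 windows of this length, 6.75% held the AP-1 motif and 3.90% the NF-κB motif. A match describes the letters of the window and says nothing about binding in these cells. *Il36g*, *Il23a* and *Mmp9* are named only.

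The label of the cells was checked against marker lists. Levels are counts of a gene per 1000000 counts of the cells summed (CPM). Each activated neutrophil held at least 1 transcript of 14 neutrophil genes that the rule did not use, which together reached 11841 to 18783 CPM in the vehicle pools and 14257 to 24130 CPM in S100a8-rich neutrophils. *Mxd1*, a transcription factor gene of mature neutrophils, was detected in 77.5% of them. *Ly6g*, the gene of the usual surface marker of mouse neutrophils, had 0 counts in activated neutrophils. It was at 8.16 CPM in S100a8-rich neutrophils, and had only 187 counts in the whole data set. The macrophage list summed to 587 to 949 CPM in the vehicle pools against 5667 CPM in macrophages, and the monocyte list to 204 to 643 CPM against 2393 CPM in monocytes. Both values were kept low by the rule. The eosinophil list gave 29.4 to 96.2 CPM, with *Epx*, the eosinophil peroxidase, at 0, although *Epx* had only 5 counts in the whole data set. Most of this level was *Siglecf*, found in 7.90% of activated neutrophils, at 55.6 CPM against 21.4 CPM in S100a8-rich neutrophils. Both levels pool all 7 conditions, and most S100a8-rich neutrophils came from day 1. At days 1, 7 and 14 with vehicle the eosinophil list gave 29.4, 68.4 and 96.2 CPM in activated neutrophils. In S100a8-rich neutrophils it gave 15.9, 80.2 and 79.0 CPM. Dendritic cell genes were higher, with 1042 to 2086 CPM in the vehicle pools and 2985 to 5121 CPM in the entospletinib pools. The basophil list gave 0 to 24.3 CPM with vehicle and 181 to 1321 CPM with entospletinib, and the mast cell list 4.97 to 32.7 CPM and 36.2 to 1028 CPM.

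Not every one of these genes set such cells apart, since *Wdfy4*, of the dendritic cell list, was at 721 CPM in activated and 720 CPM in S100a8-rich neutrophils and was detected in 51.9% of the former. At least 5 transcripts of the dendritic cell list or at least 2 of the basophil and mast cell lists were found in 51 of 449 activated neutrophils at day 1 with vehicle, 24 of 441 at day 7 and 29 of 338 at day 14, and in 8 of 39, 6 of 26 and 2 of 6 with entospletinib. They held 14.2% to 30.0% of all transcripts of activated neutrophils in the vehicle pools and 42.1% to 48.2% in the entospletinib pools. In S100a8-rich neutrophils, 3.72% to 9.71% of cells met the same limits in these pools. Counts of genes between pools are therefore also given without these cells, an alternative chosen after seeing the data. These limits are absolute counts and so also took deeper cells, with a median of 2209 counts against 1459 for the rest at day 1 with vehicle, 3476 against 1365 at day 7, 4485 against 979 at day 14, and 2548 against 939 at day 1 with entospletinib. The dendritic cell list holds the MHC class II genes *H2-Ab1* and *H2-Eb1*, so leaving these cells out lowers such genes by construction.

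Depth was moderate. Activated neutrophils had a median of 1348 counts per cell over all pools and 2229483 counts in total, and the median over all cells ranged from 933 to 2928 between pools. Called doublets made up 5.53% of activated neutrophils, 5.63% of S100a8-rich neutrophils and 10.57% of all cells. The combination of well barcodes was seen in more than 1 sublibrary for 13712 combinations, which included those of 314 activated neutrophils, and 7 combinations held at least 2 of them.

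Activated neutrophils were rare in the uninjured kidney, made up about 2% of cells at day 1 after IRI, were most frequent at day 7 and were back near the day 1 share at day 14. The control pool held 4 of 11205 cells, a share of 0.0357% (exact Clopper-Pearson 95% interval 0.00973% to 0.0914%). In vehicle pools there were 449 of 22489 cells at day 1, a share of 2.00% ± 0.152 (SD over 8 sublibraries), 441 of 6110 cells at day 7, a share of 7.22% ± 0.993, and 338 of 17261 cells at day 14, a share of 1.96% ± 0.319. Over the sublibraries the share ran from 1.75% to 2.19% at day 1, from 5.57% to 8.55% at day 7 and from 1.69% to 2.58% at day 14. The day 7 range thus overlapped neither of the other ranges, which overlapped each other. The share at day 7 was 3.62-fold that at day 1 (log2 ratio 1.85, counting interval 1.66 to 2.05), and it was higher in 8 of 8 sublibraries. The limits on cells kept 6110 of 12968 barcodes at day 7, and over all barcodes the shares were 3.92% and 1.88%, a log2 ratio of 1.06. With the first sum at least 2 times the second it was 2.66. Between day 14 and day 1 the log2 ratio was -0.03, with an interval of -0.24 to 0.18. All intervals cover counting error only.

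**Figure D1:**
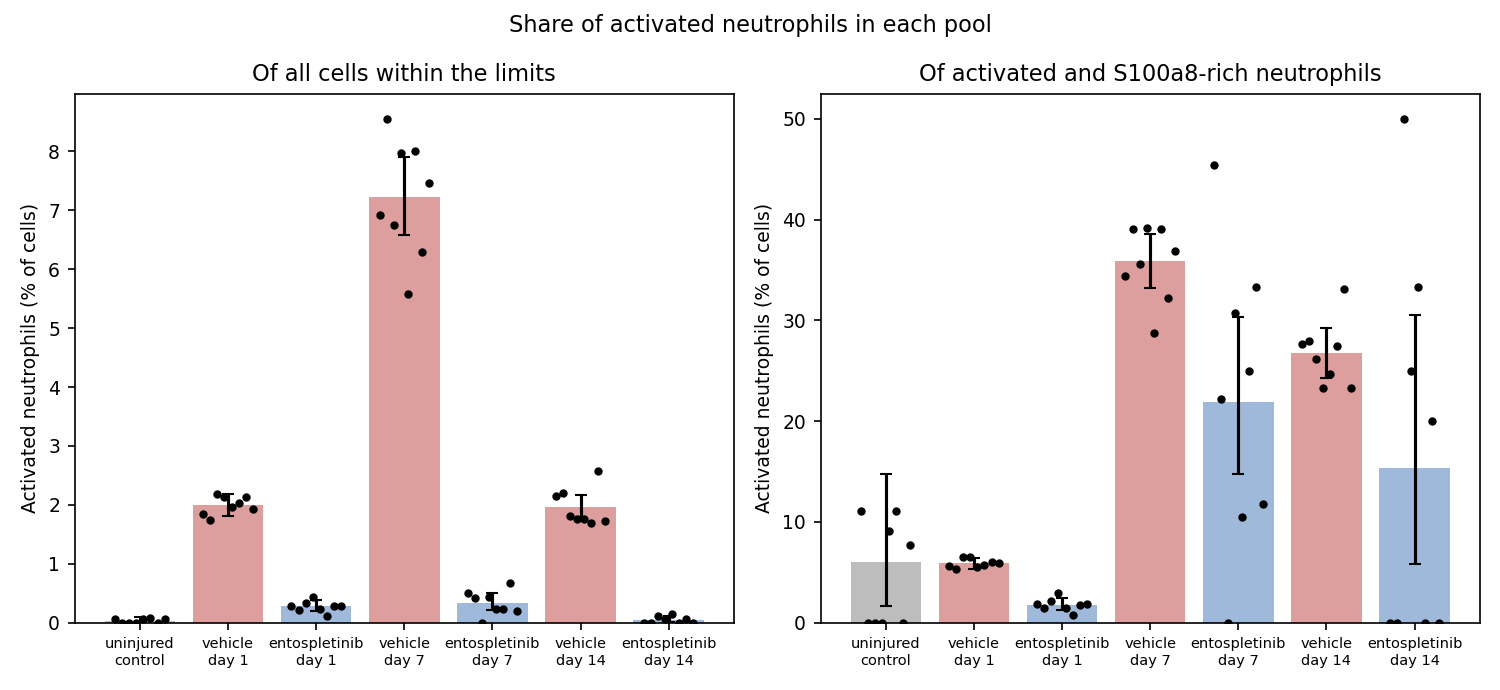
Share of activated neutrophils (percent, bars) in each of the 7 pools, among all cells within the limits on the left and among both kinds of neutrophil on the right, with points for the 8 sublibraries and error bars for the exact 95% interval. On the left the vehicle bars stand at 2.00%, 7.22% and 1.96% and the entospletinib bars of the same days at 0.278%, 0.342% and 0.0494%.

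Neutrophils of both kinds did not follow one course. S100a8-rich neutrophils went from 0.553% of cells in the control (62 cells) to 31.8% at day 1 with vehicle (7160 cells), 12.9% at day 7 (789 cells) and 5.37% at day 14 (927 cells). Among neutrophils of both kinds, activated neutrophils thus made up 5.90% at day 1, 35.9% at day 7 and 26.7% at day 14 in vehicle pools, against 6.06% in the control, where 4 cells stood behind the value. The share among neutrophils was 6.08-fold higher at day 7 than at day 1 and 4.53-fold higher at day 14, each in 8 of 8 sublibraries. The share among all cells at day 14 against day 1 moved with the rule. Its log2 ratio was 0.83 with the first sum at least 2 times the second, and below 0 when every cell was thinned to 1000 counts with a first sum of at least 2 (-0.71), where the thinning left out 157 of the 338 activated neutrophils of day 14.

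Entospletinib pools held fewer activated neutrophils at every day. There were 39 of 14041 cells at day 1, a share of 0.278% ± 0.0937, 26 of 7605 cells at day 7, a share of 0.342% ± 0.213, and 6 of 12144 cells at day 14, a share of 0.0494% ± 0.0597 (SD over 8 sublibraries). Compared with vehicle, the share was 7.19-fold lower at day 1 (counting interval 5.18 to 10.2), 21.1-fold lower at day 7 (14.2 to 32.7) and 39.6-fold lower at day 14 (18.0 to 109), with the lower value in 8 of 8 sublibraries each time. Over all barcodes the log2 ratio at day 7 was -3.81 in place of -4.40. Over the 3 same-day pairs of pools the mean log2 ratio was -4.19 ± 1.25 (SD, n = 3 pairs), lower in 3 of 3, and a two-sided exact sign-flip permutation test gave p = 0.25, which is the smallest p that 3 pairs allow.

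S100a8-rich neutrophils were also fewer with entospletinib, 2.08-fold lower as a share of cells at day 1, 10.6-fold at day 7 and 19.8-fold at day 14. Among neutrophils of both kinds the activated share was 1.78% with entospletinib against 5.90% with vehicle at day 1, 21.9% against 35.9% at day 7 and 15.4% against 26.7% at day 14. At day 1 it was 3.31-fold lower, in 8 of 8 sublibraries. The difference was smaller at day 7 (1.64-fold, in 6 of 8 sublibraries) and at day 14, where the interval of the log2 ratio, -2.25 to 0.34, included 0 and 6 cells stood behind the entospletinib value. The mean log2 ratio of this share over the 3 pairs was -1.08 ± 0.562 (SD, n = 3 pairs), again with p = 0.25 by the exact permutation test. Fewer activated neutrophils and fewer of these transcripts per neutrophil cannot be told apart here. The median depth of activated neutrophils was 1058 counts at day 1 with entospletinib and 1524 counts with vehicle, and with every cell thinned to 1000 counts and a first sum of at least 2 the log2 ratio of their share of all cells at day 1 was -3.58.

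The rule drew a line through a continuous range. In the vehicle pool of day 7, 4.88% of neutrophils with transcripts of either sum had over 0.9 of them from the first, and 13.8% had less than 0.1, with no gap between these ends. At day 1 with entospletinib, 69.5% had less than 0.1, against 44.9% with vehicle. The first sum had a median of 10 transcripts in activated neutrophils, from 4 to 95. Just inside the limits, 119 of them had exactly 4 transcripts of the first sum and 178 had 1 more of the first than of the second. Just outside, 131 cells had 3 transcripts of the first sum and 189 had equal sums.

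Activated neutrophils differed among themselves in which cytokine genes they carried. *Il1rn* was detected in 72.5% of them, *Csf1* in 70.8%, *Ccrl2* in 65.6%, *Il1a* in 40.8%, *Il36g* in 33.6% and *Il23a* in 17.6%. Only 20 of 1303 cells held all 6, 469 cells held 3 of them, and 113 cells were taken on 1 gene alone. In B cells, which should lack these transcripts and had a median depth of 1447 counts against 1348, the shares ran from 0.0905% for *Il23a* to 2.11% for *Csf1*. A cell with no count of a gene at this depth may still express it.

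The levels in this paragraph pool all 7 conditions. *Il1a* stood at 931 CPM in activated neutrophils, at 142 CPM in S100a8-rich neutrophils, at 25.3 CPM in monocytes and 25.0 CPM in macrophages, and at 2.00 CPM in B cells. Most S100a8-rich neutrophils came from day 1, when *Il1a* was lower than at days 7 and 14 with vehicle, so pooling widened this gap. *Csf1* stood at 2476 CPM, 904 CPM, 13.5 CPM and 10.9 CPM in the same order, and at 97.2 CPM in endothelial cells, the highest level in the 4 classes compared outside neutrophils. *Il36g*, at 768 CPM in activated and 385 CPM in S100a8-rich neutrophils, was at or under 2.50 CPM in monocytes, macrophages, B cells and endothelial cells. The gap between both kinds of neutrophil was fixed by the rule. The gap to the 4 other classes also showed in S100a8-rich neutrophils, which were not chosen for these genes being high.

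**Figure D2:**
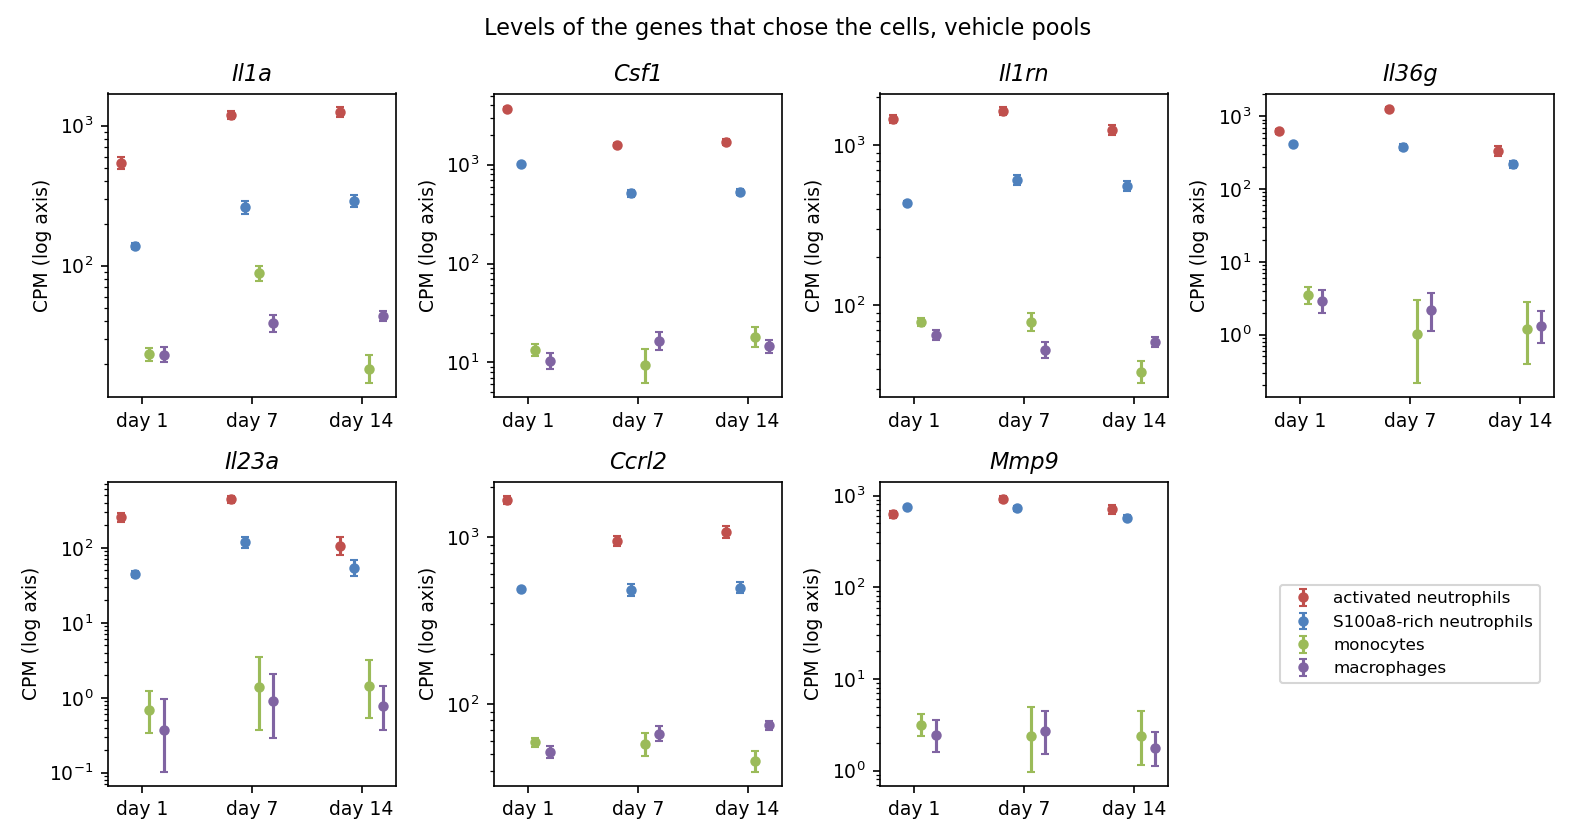
Level of the 6 genes of the first sum and of *Mmp9* (CPM, log axis) at days 1, 7 and 14 in the vehicle pools, in activated neutrophils, S100a8-rich neutrophils, monocytes and macrophages, with exact Poisson 95% intervals. In activated neutrophils *Il1a* goes from 540 CPM at day 1 to 1252 CPM at day 14 while *Csf1* goes from 3675 CPM to 1708 CPM, and *Mmp9* sits at like levels in both kinds of neutrophil.

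The 6 genes took different courses over the days after injury, given here as a description, since the rule held up their sum in each cell. *Il1a* was at 540 CPM at day 1 with vehicle, 1198 CPM at day 7 and 1252 CPM at day 14 in activated neutrophils. With entospletinib it was at 317 CPM, 127 CPM and 1321 CPM, where 18, 7 and 9 counts stood behind the values, and in the control 5 counts gave 981 CPM. *Il1a* was thus 2.22-fold higher at day 7 than at day 1 and 2.32-fold higher at day 14. S100a8-rich neutrophils showed the same direction, with 139 CPM at day 1, 262 CPM at day 7 and 289 CPM at day 14.

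*Csf1* went the other way. It was at 3675 CPM at day 1 with vehicle, 1582 CPM at day 7 and 1708 CPM at day 14, and at 3801 CPM, 3944 CPM and 3524 CPM with entospletinib. The level at day 7 was 2.32-fold lower than at day 1, and the share of cells with a *Csf1* transcript went from 83.5% to 56.5%. In S100a8-rich neutrophils *Csf1* was at 1016 CPM, 512 CPM and 530 CPM at the 3 days with vehicle.

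*Il36g* and *Il23a* were highest at day 7. *Il36g* was at 622 CPM, 1253 CPM and 335 CPM in activated neutrophils at days 1, 7 and 14 with vehicle, while S100a8-rich neutrophils had 418 CPM, 377 CPM and 219 CPM. *Il23a* was at 256 CPM, 445 CPM and 106 CPM in activated neutrophils. *Il1rn* moved least, with 1464 CPM, 1640 CPM and 1251 CPM, and *Ccrl2* was at 1666 CPM, 949 CPM and 1070 CPM. *Mmp9*, the gene of gelatinase B, stored in neutrophil granules, was at 621 CPM, 924 CPM and 706 CPM.

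Entospletinib and vehicle were compared in the level of these genes per activated neutrophil, which the rule held up in every pool. At day 1 *Csf1* had a log2 ratio of 0.05 (counting interval -0.16 to 0.25) and *Ccrl2* of -0.17 (-0.51 to 0.15). *Il1a* had -0.73 (-1.54 to -0.09), but 9 of its 18 counts came from 1 cell. S100a8-rich neutrophils, with 2149 and 7160 cells, had a log2 ratio of -1.62 for *Il1a* (-1.90 to -1.37), -2.02 for *Il23a* (-2.61 to -1.52) and -0.51 for *Csf1* (-0.58 to -0.45). At day 7, 26 cells with entospletinib had *Csf1* at 3944 CPM against 1582 CPM with vehicle, a log2 ratio of 1.32, and *Il1a* at 127 CPM against 1198 CPM, a log2 ratio of -3.14 (-4.56 to -2.19). *Il23a* had 0 counts in these 26 cells, which allows a level of up to 54.3 CPM, against 445 CPM with vehicle. Of these 26 cells, 6 held dendritic cell, basophil or mast cell markers, with 42.1% of the transcripts, and no level without them is given.

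Activated neutrophils held a large part of these transcripts in the whole suspension at day 7. There they were 7.22% of cells and 3.78% of all transcripts, and held 40.6% of the *Il1a* transcripts, 44.7% of *Csf1*, 52.1% of *Il36g*, 53.0% of *Il23a* and 30.0% of *Tnf*. At day 1 with vehicle they held 11.4% of *Il1a*, 14.8% of *Csf1* and 7.20% of *Il36g*, and S100a8-rich neutrophils held 48.6%, 68.2% and 80.5%. With entospletinib at day 1 they held 4.14% of *Il1a* and 6.18% of *Csf1*. For the genes of the rule these parts are raised by the choice of the cells.

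Outside the genes of the rule, activated neutrophils differed from S100a8-rich neutrophils in few genes by 2-fold or more. Of 2291 genes with at least 100 counts in activated neutrophils of the vehicle pools and found in at least 10% of the cells of either kind, 7 were past 2-fold higher at each of the 3 vehicle days (0.306% of genes) and 10 past 2-fold lower (0.436%). Taken by themselves, day 1 had 104 genes higher and 78 lower, day 7 had 21 and 25, and day 14 had 20 and 46. The contrast has the cells of the rule on both sides, so none of this is a test.

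*Tnf*, *Ccl3*, *Ccl4*, *Ikbke* and *Icam1* were among the genes higher in activated neutrophils. *Tnf*, the gene of tumor necrosis factor, was at 540 CPM, 676 CPM and 437 CPM in activated neutrophils at days 1, 7 and 14 with vehicle, against 194 CPM, 248 CPM and 190 CPM in S100a8-rich neutrophils, a log2 ratio of 1.48, 1.45 and 1.20. *Ccl3* and *Ccl4*, chemokines that attract monocytes and T cells, had mean log2 ratios over the 3 days of 1.34 and 1.15. *Ikbke*, an NF-κB and interferon pathway kinase, had 1.42, and *Icam1*, a ligand of leukocyte integrins, 1.24. *Icam1* was detected in 51.6% of activated and 21.6% of S100a8-rich neutrophils of the vehicle pools.

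*F10*, the gene of coagulation factor X, had the highest mean log2 ratio, 1.62, and was concentrated in few cells at day 1, where 30.1% of its 206 counts came from 1 cell. At day 7 it was found in 135 of 441 activated neutrophils, at 924 CPM against 510 CPM in S100a8-rich neutrophils. Activated neutrophils held 2.06% of all *F10* counts at day 1 with vehicle and 26.8% at day 7. S100a8-rich neutrophils held 5.70% and 23.2%, so most *F10* counts of day 1 lay in other cells. The ranking compares both kinds of neutrophil alone. *Mreg* (1.44), *Ralgds* (1.33), *Tns3* (1.26), *Dusp2*, a phosphatase of MAP kinases (1.20), *Havcr2*, the gene of TIM-3 (1.18), *Fnip2* (1.17), *Abcc1* (1.08), *Cd274*, the gene of PD-L1 (1.07), and *Mapk6* (1.03) made up the rest of the 15 highest.

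Among the genes lower in activated neutrophils was *Adam8*, a surface protease, at 316 CPM, 108 CPM and 166 CPM at the 3 vehicle days against 937 CPM, 249 CPM and 355 CPM in S100a8-rich neutrophils, a mean log2 ratio of -1.29. *Padi4*, the enzyme that citrullinates histones in neutrophil extracellular traps, had a mean log2 ratio of -1.35, *Slc2a3*, a glucose transporter, -1.16, and *Hp*, haptoglobin, -1.14. *Rdh12* was lowest with -1.77, and *Trpm2* (-1.42), *Selenon* (-1.36), *F5* (-1.26), *Atrn* (-1.23), *Trf* (-1.21), *Dgat1* (-1.18), *Adam19*, *Cd300lb* and *Ripor2* (each -1.14) were the others named by rank.

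**Figure D3:**
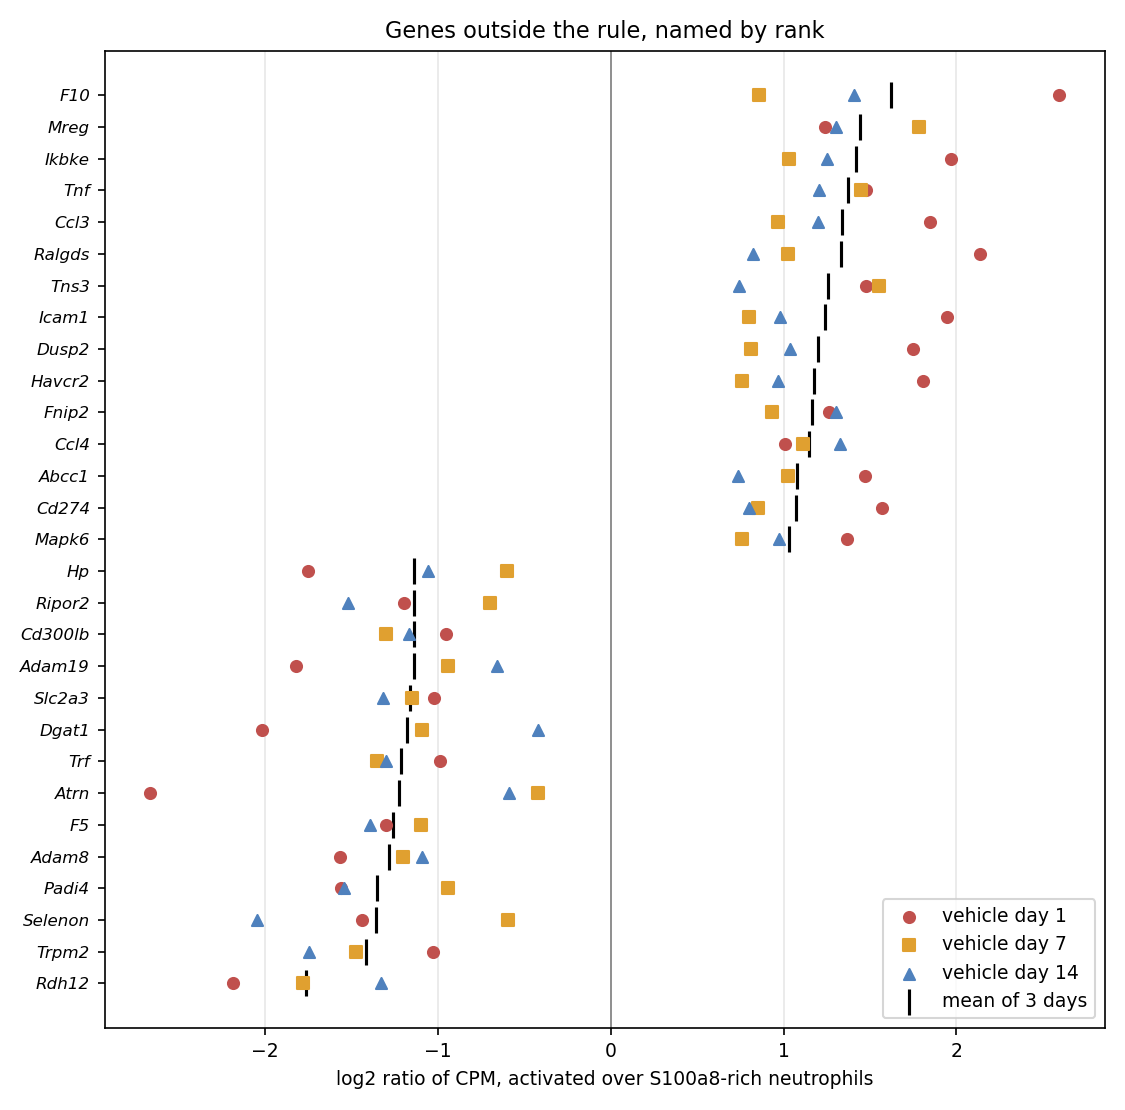
Log2 ratio of activated over S100a8-rich neutrophils for 29 genes named by rank outside the rule, with 1 point for each vehicle day and a bar at the mean of the 3 days. *F10* is highest with a mean of 1.62 and *Rdh12* lowest with -1.77, and each of these 29 genes keeps its sign at all 3 days because the ranking required it.

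Of 16 genes tested in the NF-κB list, 0 were past 2-fold at each day in either direction, beside 0.306% higher and 0.436% lower of all 2291 genes. The list had a median log2 ratio of 0.41 beside 0.02 over all genes. *Tnip1* (0.85), *Tnfaip3* (0.58) and *Nfkbia* (0.58), feedback inhibitors of NF-κB, were each higher at all 3 days. The survival and death list had a median of 0.41 over 13 genes, where *Bcl2a1a*, *Bcl2a1b* and *Bcl2a1d*, which encode antiapoptotic proteins, had 0.83, 0.81 and 0.92. These 3 are near-identical copies between which counting can split reads. Chemokine ligands had a median of 0.54 over 5 genes, and other cytokines and growth factors 0.30 over 5. Each of these lists had 1 gene past 2-fold higher, beside the 0.306% of all genes. Granule proteins had a median of -0.71 over 4 genes with 0 past 2-fold, beside the 0.436% of all genes lower.

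Not all inflammatory genes were higher. *Il1b*, the gene of interleukin 1β and the cytokine gene with the most counts in the lists, had log2 ratios of 0.01, -0.08 and -0.11 at the 3 days. The list of the SYK pathway and its receptors had a median of -0.13 over 26 genes with 0 past 2-fold in either direction. Over all genes 0.306% were higher and 0.436% lower, so a count of 0 does not set this list apart. *Syk* itself stood at 1381 CPM, 905 CPM and 1179 CPM in activated neutrophils against 1487 CPM, 1129 CPM and 1134 CPM in S100a8-rich neutrophils.

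Within activated neutrophils, more genes were lower than higher at day 7 against day 1. Of 3740 genes with at least 50 counts over both vehicle pools, 142 were past 2-fold higher (3.8%) and 374 past 2-fold lower (10%). At day 14 against day 1, 262 of 3492 genes were past 2-fold higher (7.5%) and 288 lower (8.25%). Both comparisons share the day 1 pool. The median log2 ratio of all genes was -0.18 at day 7 and -0.02 at day 14. Relative to the median 210 genes were higher and 260 lower at day 7, and 275 and 282 at day 14. After TMM scaling they were 176 and 312 at day 7, and 185 and 409 at day 14. Testing at least 100 counts left 70 and 111 genes past 2-fold higher, and thinning every cell to 1000 counts left 79 and 106. Ratios of levels add 0.5 to each count, and no replicate of a pool stood behind them.

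In several lists, genes past 2-fold lower at days 7 and 14 made up a larger share than the 10% and 8.25% of all genes. The shares were 36.8% and 31.6% for adhesion molecules, 30.8% and 36.4% for oxidative burst and traps, and 28.6% and 37.5% for chemoattractant receptors. The SYK pathway list had 25.9% and 23.1%, and was not set apart from these. In the granule protein list 4 of 7 genes were past 2-fold lower at day 7 and 5 of 7 at day 14, and 0 were higher. *Lcn2*, lipocalin 2, had a log2 ratio of -0.34 at day 7 and -2.65 at day 14, and *Pglyrp1*, a bactericidal granule protein, -1.19 and -2.01. In the interferon response list 5 of 10 genes were past 2-fold lower at day 7 and 2 higher, and 4 of 11 were lower at day 14 and 2 higher. *Rsad2*, the antiviral gene of viperin, went from 102 CPM at day 1 to 4.97 CPM at day 7 and 11.5 CPM at day 14, where 20 of its 80 counts at day 1 came from 1 cell and 4 counts stood behind day 7. Its log2 ratio of -4.20 at day 7 was -5.45 without sublibrary 8. *Ifitm3* went from 127 CPM to 11.2 CPM and 23.1 CPM. In the SYK pathway list 7 of 27 genes were past 2-fold lower at day 7 and 6 of 26 at day 14. *Tyrobp* and *Fcer1g*, which encode the ITAM adaptors DAP12 and FcRγ, had log2 ratios of -1.73 and -1.61 at day 7 and -1.68 and -1.13 at day 14.

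Without the cells that held dendritic cell, basophil or mast cell markers, at day 7 the genes past 2-fold lower were 4 of 7 granule genes, 5 of 8 interferon genes and 7 of 27 SYK pathway genes, and at day 14 they were 4 of 6, 3 of 7 and 4 of 26. Over all genes 11% and 7.78% were lower and 3.95% and 6.77% higher at these days without those cells. The adhesion list, with 7 of 19 genes past 2-fold lower at day 7, included *Itgal*, the α chain of LFA-1 (-1.89), and *Selplg*, the ligand of P-selectin (-1.31). In the glucocorticoid response list 5 of 7 genes were past 2-fold lower at day 7 and 1 of 7 at day 14, and 3 of 6 and 1 of 6 without those cells. *Fkbp5*, a cochaperone of the glucocorticoid receptor, had log2 ratios of -1.94 and -1.92.

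Chemokine ligands were counted against day 1 at each later day, and days 7 and 14 were not compared directly for this list. At day 14, 5 of 8 tested chemokine ligands were past 2-fold lower than at day 1 and 1 higher, beside 8.25% and 7.5% of all genes. At day 7, 2 of 7 were lower and 0 higher, beside 10% and 3.8% of all genes. Without the cells that held other markers 3 of 5 were lower at day 14 and 1 of 7 at day 7. *Cxcl3* had a log2 ratio of -2.75 at day 14 and *Cxcl2*, the main neutrophil attractant of the list by counts, -1.16. At day 7 these genes had log2 ratios of 0.26 and 0.22. *Ccl4* was lower at both days (-1.19 and -1.39). *Il1b* had -0.32 and -0.30, and *Nlrp3*, the sensor of the inflammasome, 0.88 and 0.04.

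**Figure D4:**
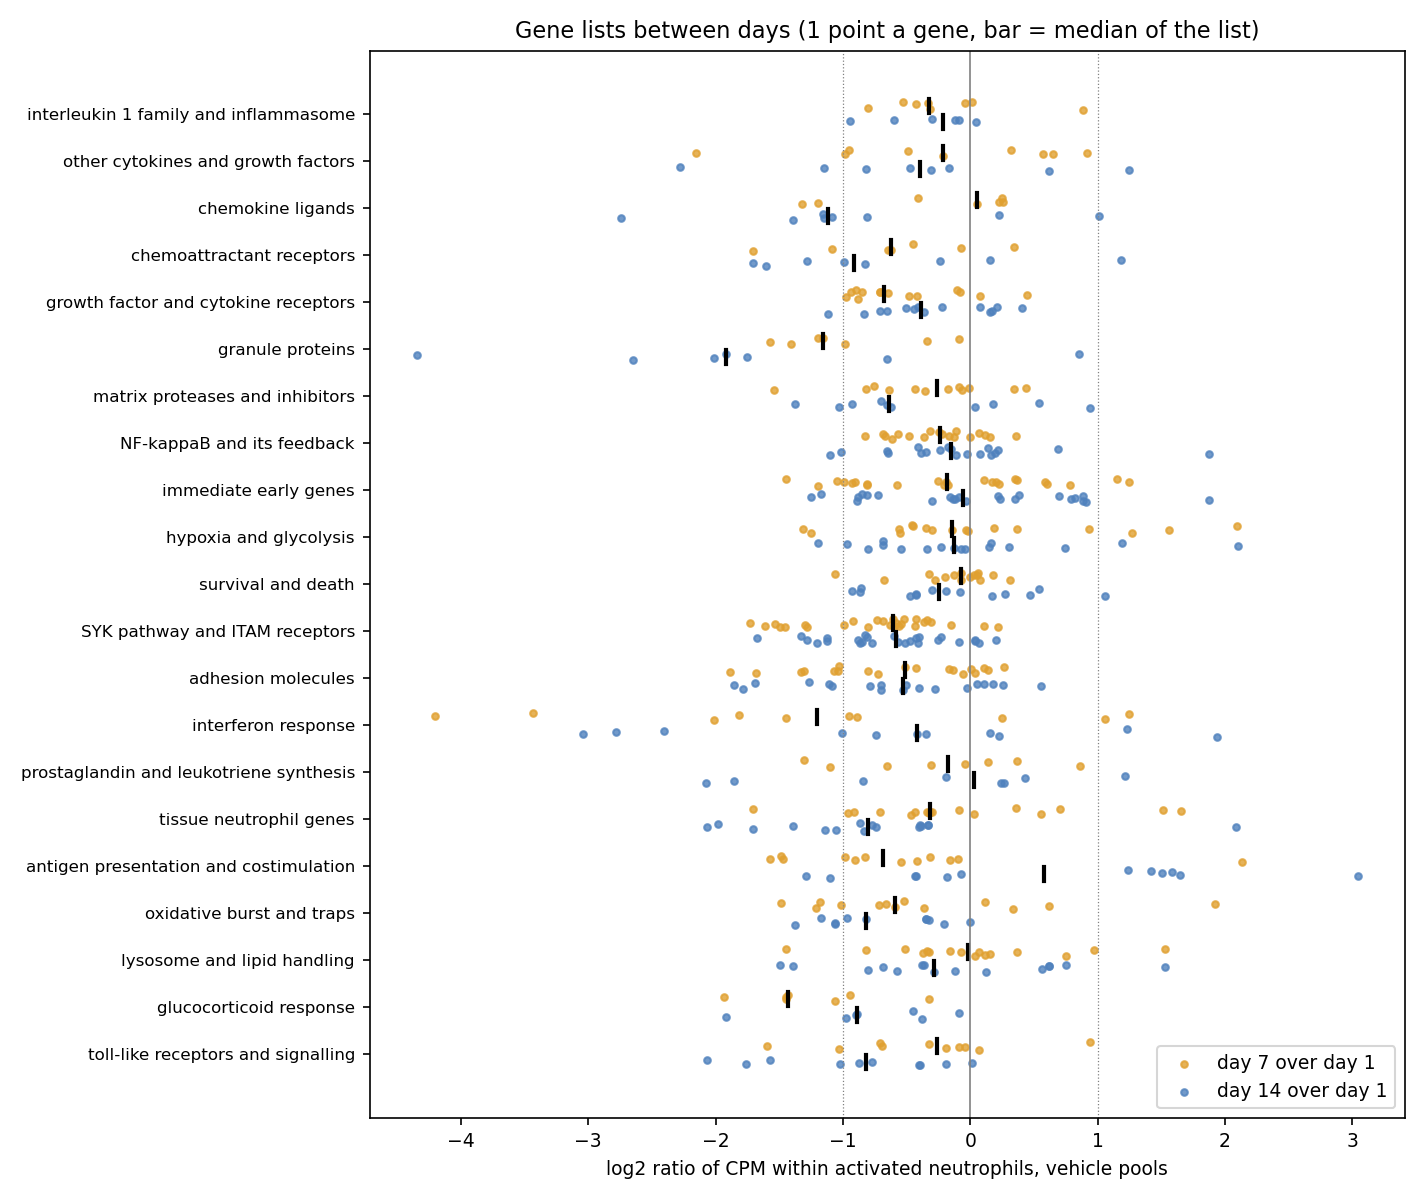
Log2 ratios at day 7 and at day 14 against day 1 with vehicle within activated neutrophils, with 1 point a gene, grouped by list, and a bar at the median of each list. Granule proteins have a median of -1.16 at day 7 and -1.91 at day 14, beside -0.18 and -0.02 over all genes.

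Some genes were higher at both later days. *Hk2*, hexokinase 2, went from 71.7 CPM at day 1 to 213 CPM and 310 CPM at days 7 and 14, and *Egln3*, an oxygen sensor that is itself induced by hypoxia, from 56.3 CPM to 242 CPM and 129 CPM. *Siglecf*, a lectin gene of eosinophils and of neutrophils in injured tissue, had log2 ratios of 1.52 and 2.09, and *Vegfa* 0.92 and 1.24. The eosinophil list also rose in S100a8-rich neutrophils, from 15.9 CPM to 80.2 CPM and 79.0 CPM. The list of tissue neutrophil genes had 2 of 17 genes past 2-fold higher at day 7 and 1 lower. At day 14 it had 1 of 16 higher and 6 lower, and its medians were -0.32 and -0.81. In the hypoxia and glycolysis list 3 of 17 genes were past 2-fold higher at day 7 and 2 lower, and 2 of 17 were higher at day 14 and 1 lower. The medians of the list were -0.14 and -0.12, and over all genes 3.8% were higher and 10% lower at day 7, and 7.5% and 8.25% at day 14.

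*Il31ra*, a receptor chain of the interleukin 6 receptor family, was found in 33 of 449 activated neutrophils at day 1, in 165 of 441 at day 7 and in 52 of 338 at day 14, at 53.8 CPM, 347 CPM and 166 CPM. In S100a8-rich neutrophils it was at 57.7 CPM, 369 CPM and 191 CPM. *AU020206*, a long noncoding RNA, was at 29.4 CPM, 92.0 CPM and 196 CPM. *Tmcc3* (log2 ratios 1.89 and 2.08), *Gm42047*, *Tanc2*, *Nrip1* and *Hnrnpr* were also among the 10 genes with the highest ratio at both days. Some of these rested on few cells or on 1 sublibrary. *Tanc2* had 56.9% of its 51 day 7 counts in 5 cells, and its log2 ratio of 1.89 at day 7 was 1.21 without sublibrary 6. *Cadm1* had 49.3% of its day 7 counts in 1 cell and *Immp2l* 47.2%. Their log2 ratios at day 7 went from 2.83 to 1.78 for *Cadm1* without sublibrary 6, and from 2.01 to 1.15 without sublibrary 7 and 3.02 without sublibrary 2 for *Immp2l*. *Ciita*, the master regulator of MHC class II genes, had 56 and 68 counts at days 7 and 14, of which 18 and 13 remained without the cells that held other markers. Without sublibrary 2 its log2 ratios of 2.13 and 3.04 were 3.23 and 4.01.

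MHC class II genes are those of antigen-presenting cells. In the antigen presentation list 6 of 12 genes were past 2-fold higher at day 14 than at day 1 and 2 lower, beside 7.5% and 8.25% of all genes. At day 7, 1 of 12 was higher and 3 lower, beside 3.8% and 10% of all genes. The medians of the list were -0.68 at day 7 and 0.58 at day 14. Without the cells that held markers of other classes, which were picked in part on these genes, 0 of 10 were higher at day 14 and 2 lower. *H2-Aa* had 159 counts at day 14 in all activated neutrophils and 26 without these cells.

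The 10 genes with the lowest ratios at both days were *Rsad2*, *Crispld2*, *Clu*, *Adgre4*, *Ifitm3*, *Plcb1*, *Gsdme*, *Gngt2*, *Emp3* and *Slc26a11*. *Clu*, the secreted chaperone clusterin, went from 134 CPM at day 1 to 17.4 CPM and 17.3 CPM, and *Gsdme*, a pore-forming gasdermin, from 101 CPM to 21.1 CPM and 19.2 CPM. In S100a8-rich neutrophils the same 10 genes were also lower at day 7 than at day 1, from a log2 ratio of -4.00 for *Ifitm3* to -0.38 for *Gngt2*, and at day 14, from -2.73 for *Crispld2* to -0.67 for *Slc26a11*.

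Between entospletinib and vehicle at day 1, 39 cells with 56830 counts were set against 449 cells with 781288 counts. Of 2566 genes, 153 were past 2-fold higher (5.96%) and 363 past 2-fold lower (14.1%), and the median log2 ratio was -0.19. The split depended on scaling, with 60 higher and 770 lower after TMM scaling and 252 higher relative to the median. Without the 8 cells that held markers of other classes, 115 of 2103 genes were higher (5.47%) and 275 lower (13.1%). No value below reaches beyond these 39 cells.

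*Icam1*, *Egr1*, *Nfkbia* and *Malt1* were among the lower genes. *Icam1* was at 246 CPM with entospletinib against 916 CPM with vehicle, a log2 ratio of -1.85 (counting interval -2.77 to -1.14) that was lower in 7 of 8 sublibraries, and -1.34 without the 8 cells. In S100a8-rich neutrophils *Icam1* was at 95.3 CPM against 238 CPM, lower in 8 of 8. *Egr1*, an immediate early transcription factor, had -1.72 (-2.80 to -0.93) and was detected in 8 of 39 cells against 227 of 449. *Nfkbia*, the NF-κB inhibitor IκBα and a target of NF-κB, had -1.25, and -0.74 without the 8 cells. *Malt1*, a signalling partner of CARD9 and BCL10 downstream of SYK, had -1.43, and *Syk* itself -0.89, which were -1.02 and -0.58 without the 8 cells. In S100a8-rich neutrophils *Nfkbia*, *Malt1* and *Syk* had -0.73, -0.96 and -0.56, each lower in 8 of 8 sublibraries.

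By list, 3 of 17 genes of the NF-κB list were past 2-fold lower with entospletinib, 4 of 27 of the SYK pathway list, 5 of 23 immediate early genes and 0 of 6 chemokine ligands. The first 3 are 17.6%, 14.8% and 21.7% of their lists, near or a little above the 14.1% of all genes. Without the 8 cells these numbers were 1 of 16, 1 of 25, 3 of 21 and 0 of 5. The SYK pathway list had a median of -0.60 beside -0.19 over all genes, and without the 8 cells a median of -0.0027 beside -0.08, with 1 gene higher. In the adhesion list 3 of 19 genes were lower (15.8%) and 1 higher, and 3 of 17 were lower without the 8 cells. *Tnf* had a log2 ratio of -0.39, *Ccl3* of -0.06 and *Il1b* of -0.72. *Inhba*, an activin subunit gene with 1.42 in activated over S100a8-rich neutrophils at day 1, had 1 count against 132, a log2 ratio of -2.68 with an interval of -8.58 to -0.76. *Ero1a*, an oxidase of protein folding, had 0 counts against 145, and 0 counts allow a level of up to 52.8 CPM. The other genes with the lowest ratios that had the same sign in 8 of 8 sublibraries were *Cyp4f18*, which breaks down leukotriene B4 (-2.34), *Tet3* (-1.82), *Snx10* (-1.69), *Mpp7* (-1.64), *Ddx3x* (-1.63), *St3gal1* (-1.60), *Spag9* (-1.27), *Skil* (-1.22) and *Fndc3b* (-1.21). All of them were lower in S100a8-rich neutrophils as well, from -0.34 for *Ddx3x* to -0.95 for *Skil*.

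Among genes with 1 sign in 8 of 8 sublibraries, the highest ratio was that of *Peak1*, which encodes a pseudokinase of the cytoskeleton. It was at 4329 CPM against 236 CPM with vehicle, a log2 ratio of 4.20 (3.92 to 4.48). Other classes of the same pool showed it too. *Peak1* stood at 3288 CPM in S100a8-rich neutrophils, at 3591 CPM in B cells and at 4019 CPM in endothelial cells, against 296 CPM, 204 CPM and 928 CPM in the vehicle pool. *Il31ra* was likewise higher across classes, at 282 CPM against 53.8 CPM in activated neutrophils and at 451 CPM against 55.2 CPM in B cells.

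Most of the other higher genes had few counts outside the cells with markers of other classes. *H2-Aa* had 38 counts with entospletinib, of which 8 remained without the 8 cells. *Bach2* went from 17 counts to 1, *Rack1* from 12 to 1, *Rpsa* from 11 to 1, *Rps3a1* from 19 to 4, *Tmcc3* from 14 to 4 and *Zfp236* from 13 to 5. The ratio of *Bach2* also changed sign with ribosomal protein genes under 1.5% of a cell's counts. Without sublibrary 1 the log2 ratios of *Rpsa* and *Zfp236*, 2.00 and 2.13, were 1.27 and 1.31. In the antigen presentation list 5 of 10 genes were past 2-fold higher and 0 lower with all cells, beside 5.96% and 14.1% of all genes. Without the 8 cells, which were picked in part on genes of this list, 0 of 7 were higher and 2 lower. How far other cells caught in the rule shaped these values was not tested.

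**Figure D5:**
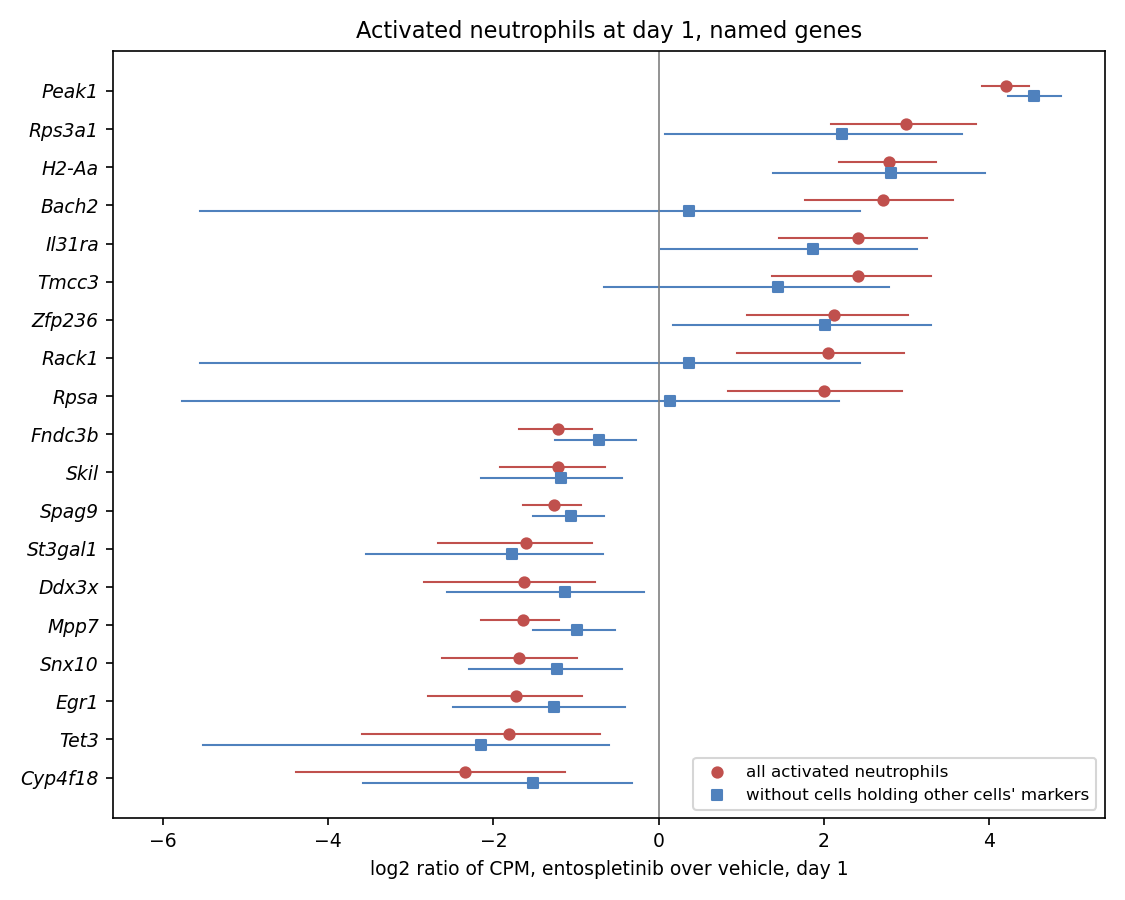
Log2 ratio of entospletinib over vehicle at day 1 for 19 genes named by rank, over all activated neutrophils (circles) and without the cells that held dendritic cell, basophil or mast cell markers (squares), with counting intervals. *Peak1* stands at 4.20 with all cells and at 4.55 without those cells.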

How the data were processed

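Kidney cells of 7 pools of 3 mice were profiled by split-pool single-cell RNA-seq (Evercode WT v2) in 8 sublibraries. The count matrix is as deposited: the authors processed the reads with the Parse pipeline version 1.1 on mm10, and its values are whole transcript counts per gene and cell, not normalised. The matrix sums equalled the deposited totals for all 120281 barcodes. Cells needed over 300 genes, under 20000 counts and under 25% mitochondrial counts. The other classes were taken by sums of marker counts, and doublets by a score above 0.5 against simulated doublets, without removal. Symbols carried by several gene IDs (147) were left out of gene comparisons.

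Counts were summed per pool and class. A log2 ratio compares (counts + 0.5) over totals. Genes were not tested, since each contrast of genes was between single pools, and are called past 2-fold, with at least 50 counts over both sums between pools, or at least 100 counts and detection in 10% of cells between both kinds of neutrophil. Intervals are exact at 95% (Clopper-Pearson for shares, Poisson for counts), cover counting error only, and a count of 0 is read as up to 3. The scripts were tested on simulated data. Genes are named by rank: the 15 highest and 15 lowest mean log2 ratios of activated over S100a8-rich neutrophils with 1 sign at 3 days, the 10 highest and 10 lowest at both later days, and the 10 highest and 10 lowest with entospletinib with 1 sign in 8 of 8 sublibraries. Some of these genes are not reported here. Other genes are examples from the lists, picked after their values were seen. The members and lists were chosen with earlier results of these data known. Sequences were read from RefSeq. Python 3.11.15, numpy 2.4.6, scipy 1.17.1, pandas 2.3.3, scikit-learn 1.9.0, matplotlib 3.10.9, R 4.3.3 and edgeR 4.0.16 (TMM alone) were used. Alternatives varied the limits of the rule and of the cells, the depth, the denominator, the scaling, the minimum of counts and the sublibraries.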

Additional observations from a re-analysis of the deposited data

Results flagged for a closer look

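In 13 of 122 groups of 8 sublibraries, 1 sublibrary stood apart from the others by Dixon's test for the level of a named gene in activated neutrophils, where chance gives about 1 in 20. At day 1 with vehicle, *Il36g* was at 1490 CPM in sublibrary 6 and at 343 to 775 CPM in the others, *F10* at 914 CPM in sublibrary 5 (42.2 to 365 CPM), *Mreg* at 155 CPM in sublibrary 1 (9.23 to 66.9 CPM) and *Selenon* at 108 CPM in sublibrary 3 (42.2 to 72.9 CPM). On the same day *F5* was at 253 CPM (14.1 to 115 CPM) and *Ripor2* at 816 CPM (416 to 576 CPM) in sublibrary 4, and *Adam19* at 265 CPM (14.1 to 89.8 CPM) and *Cd300lb* at 177 CPM (80.8 to 125 CPM) in sublibrary 1. At day 7 *Trpm2* was at 93.1 CPM in sublibrary 8, with 0 to 36.8 CPM elsewhere. At day 14 *Cd274* was at 696 CPM in sublibrary 7 (255 to 379 CPM), *Padi4* at 87.0 CPM in sublibrary 2 (0 to 36.6 CPM), *Trf* at 317 CPM in sublibrary 6 (21.8 to 148 CPM) and *Slc2a3* at 0 CPM in sublibrary 1 (40.4 to 73.2 CPM). Each set of sublibraries holds portions of 1 pool.

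Some barcodes outside the limits on cells met the rest of the rule. Among barcodes that failed the mitochondrial limit but met those on genes and counts, 34 of 518 did so at day 7 with vehicle (6.56%) and 6 of 1602 at day 7 with entospletinib. Among those with too few genes that met the mitochondrial limit, 31 of 830 did so at day 7 and 4 of 288 at day 14 with vehicle. The control pool had 0 of either kind.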

How the results depend on the processing

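The lower share of activated neutrophils with entospletinib kept its direction at each day under all alternatives run, and so did the higher share at day 7 than at day 1 with vehicle. The log2 ratio of entospletinib over vehicle at day 1, -2.85, became -3.36 with over 500 genes per cell, -3.58 with cells thinned to 1000 counts and a first sum of at least 2, and -1.73 with neutrophils as the denominator. At day 7 it was -4.40, and -0.71 among neutrophils and -3.81 over all barcodes. At day 14 it was -5.31, and -0.80 among neutrophils. For vehicle day 7 over day 1, 1.85, the value was 2.66 with the first sum at least 2 times the second, 1.61 thinned in the same way, 2.60 among neutrophils and 1.06 over all barcodes. For vehicle day 14 over day 1, -0.03, it was -0.41 with a first sum of at least 6, 0.83 with the first sum at least 2 times the second, -0.41 with over 500 genes, -0.71 thinned in the same way and 2.18 among neutrophils. Leaving out each sublibrary in turn gave -2.96 to -2.73, -4.67 to -4.23 and -5.74 to -5.07 for entospletinib over vehicle at days 1, 7 and 14, 1.79 to 1.89 and -0.08 to 0.01 for vehicle days 7 and 14 over day 1, and -4.31 to -4.07 for the mean over the 3 pairs.

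The 7 genes past 2-fold higher than in S100a8-rich neutrophils at each day were 11 in number with the same cells thinned to 1000 counts and 12 without the cells that held markers of other classes. For day 7 over day 1 the 142 higher genes became 79 thinned, 70 with at least 100 counts and 3695 with no minimum, and the 374 lower genes 3735 with no minimum. For day 14 over day 1 the 262 higher genes became 106, 111 and 4285, and the 288 lower genes 185 thinned and 1851 with no minimum. For entospletinib over vehicle at day 1 the 153 higher genes became 91 thinned, 252 relative to the median, 60 with TMM, 58 with at least 100 counts and 7113 with no minimum, and the 363 lower genes 770 with TMM, 225 with at least 100 counts and 1001 with no minimum. Without a minimum, genes of very few counts are included. Leaving out sublibraries gave 6 to 8 and 8 to 12 genes higher and lower at each day, 122 to 137 and 348 to 374 at day 7, 204 to 255 and 269 to 301 at day 14, and 120 to 151 and 332 to 392 with entospletinib. Among named genes, *Bach2* with entospletinib turned to -0.15 with ribosomal protein genes under 1.5% of a cell's counts. Of the values of named genes under the alternatives, 430 against S100a8-rich neutrophils, 575 between vehicle days and 263 with entospletinib stayed within their spread, while 5, 25 and 21 moved beyond it without turning. The cause of these shifts was not tested. The alternatives without cells that held other markers and over all barcodes were chosen after seeing the data. Pools could be paired by day alone, since no condition had more than 1 pool. The number of cells limits the control pool, with 4 activated neutrophils, and the entospletinib pools, with 39, 26 and 6.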
